A study of Mus musculus with 6 samples.

Results

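The actin isoform genes are the 6 genes that encode the conventional actins of mammals: Actc1, Acta1, Acta2, Actg2, Actb and Actg1. They were picked by gene symbol out of 22180 genes measured on arrays, and all 6 were found. Where a gene had several probe sets that name it alone, the one with the highest mean over the 6 arrays stood for it. The family was taken up with the difference of Actc1 between these samples already known, so the values of Actc1 are given as a description and without a test.

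RNA came from the tibialis anterior, a shin muscle made mainly of fast fibres. All samples came from male C57Bl/6 mice aged 18 weeks. The castrated group held 3 samples, from castration at 11 weeks of age, with the feeding label refed. The sham group held 3 samples, from a sham operation at the same age, with the label fasted. All were sampled 7 weeks after surgery, and the question of the series is what loss of the testes, the main source of androgen, does to gene expression in muscle. The series design describes an overnight fast, after which mice either had 30 minutes of food or stayed fasted, and then 4 hours without food for all, whereas the protocol attached to every sample gives the meal to all mice. Because the feeding label follows the surgery in all 6 samples, the parts of feeding and surgery in any difference cannot be told apart. Nothing in the labels beyond a mouse named for each sample says that the samples are separate animals, so the p-values reflect only the spread among the samples at hand, which may be technical.

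Actin monomers assemble into filaments. The striated isoforms Acta1 and Actc1 form the thin filaments of sarcomeres, the smooth muscle isoforms Acta2 and Actg2 form the contractile filaments of vessel and gut wall, and the cytoplasmic isoforms Actb and Actg1 build the cytoskeleton of every cell. Actc1, the cardiac alpha-actin, is the main striated actin of the heart and of developing skeletal muscle, and Acta1, the skeletal alpha-actin, takes over in adult skeletal fibres. Actin promoters are known targets of serum response factor, SRF, which binds the CArG box.

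Promoter windows of 250 bases before and 50 after the transcript start were given by RefSeq (GRCm38.p6) for 4 of the 6 genes. The striated pair is shown in full because its members behaved differently in castrated muscle, and capitals mark the CArG box (CC, then 6 bases that are each A or T, then GG, which reads alike on both strands). The Actc1 window lies at chr2:114052826-114053125 and the Acta1 window at chr8:123894726-123895025, both on the minus strand, and each contains the start of the gene's first exon.
Actc1: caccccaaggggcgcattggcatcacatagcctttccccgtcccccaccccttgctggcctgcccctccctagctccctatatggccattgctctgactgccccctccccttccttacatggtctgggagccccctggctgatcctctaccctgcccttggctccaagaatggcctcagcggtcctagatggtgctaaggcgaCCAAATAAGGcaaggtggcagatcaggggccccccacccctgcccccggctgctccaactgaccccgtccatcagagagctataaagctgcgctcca
Acta1: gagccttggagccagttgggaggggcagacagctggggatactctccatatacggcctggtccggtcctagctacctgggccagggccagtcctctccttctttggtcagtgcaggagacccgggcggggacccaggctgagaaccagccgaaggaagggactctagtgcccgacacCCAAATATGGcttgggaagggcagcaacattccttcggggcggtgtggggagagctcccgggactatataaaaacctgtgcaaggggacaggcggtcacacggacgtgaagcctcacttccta
The box of Actc1 begins 47 bases before the start and that of Acta1 begins 73 bases before it. Both windows also hold the letters TATAAA on the gene's strand, 1 time each. These letters lie after the RefSeq start in the Actc1 window and just before it in the Acta1 window. Distances are counted from the RefSeq starts, whose accuracy was not tested. The window of the cytoplasmic Actg1 holds 1 box, which begins 90 bases before the start, shown with 10 bases on each side (chr11:120348566-120348595, minus strand).
Actg1: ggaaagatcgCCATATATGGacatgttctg
The exact letters of the box are not in the Acta2 window. Stretches 1 base off the pattern were not counted in any window. Examples are ccctatatgg in the Acta2 and Actc1 windows and ccatatacgg in the Acta1 window. The absence of an exact match is therefore not an absence of SRF sites. Of 32851 mouse promoter windows from RefSeq, 1.63% hold the box, and 13.6% hold TATAAA on either strand. These are matches of letters, not measured binding.

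Actc1 was higher in castrated muscle, and the other 5 actin genes differed by 0.37 or less on the log2 scale, none past the threshold. Actc1 (Entrez 11464) had log2 values of 10.67, 10.76 and 10.86 in castrated samples, against 9.09, 9.18 and 9.21 in sham samples. The groups did not overlap, as was so for 12.8% of all genes in either direction, and the lowest castrated sample lay 1.47 above the highest sham sample, while values within a group spanned 0.19 in castrated and 0.11 in sham samples. The means were 10.76 ± 0.093 in castrated and 9.16 ± 0.057 in sham samples (SD, n = 3 each). The difference was 1.60 on the log2 scale (standard error 0.098, 95% interval 1.38 to 1.83), which is 3.04-fold (2.60 to 3.55). Among 22180 genes no other had so large a positive difference, and by absolute size it was number 4. With limma and a Benjamini-Hochberg threshold of 0.05, 0.0135% of genes were called in either direction. Actc1 was one of these 3 genes, and nothing is read from that here since it is why the family was chosen. The interval of Actc1 is not adjusted for that choice either.

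**Figure D1:**
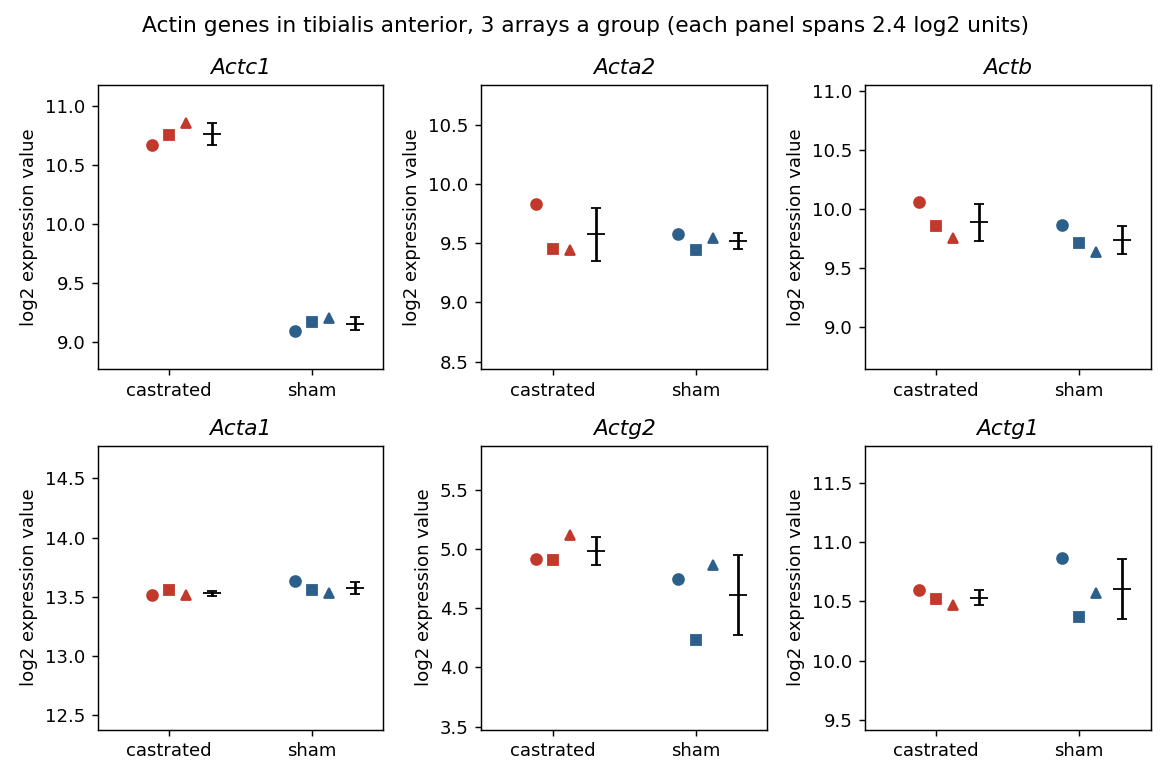
Log2 expression values of the 6 actin genes on 3 castrated arrays (red, left) and 3 sham arrays (blue, right), with circles, squares and triangles for samples 1, 2 and 3 and black bars for the mean ± SD. Every panel spans the same number of log2 units, and only in the Actc1 panel are the groups far apart, at means of 10.76 in castrated and 9.16 in sham samples.

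Acta1 (Entrez 11459), the main thin filament actin of adult fibres, had log2 values of 13.52, 13.55 and 13.52 in castrated samples, against 13.64, 13.55 and 13.54 in sham samples. The groups overlapped, and all 6 values lay within 0.12. The difference was −0.046 (standard error 0.092, 95% interval −0.25 to 0.16, limma adjusted p = 0.940), or 0.97-fold with an interval of 0.84 to 1.12. Acta1 was number 7 of all genes by mean level, and the highest value of any gene on any array was 13.91. There were 11 genes with a mean within 0.5 of the highest mean. The brightest probe sets of an array can respond less than in proportion to RNA, and whether Acta1 lay in that range was not tested.

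The smooth muscle pair gave small and uneven differences. Acta2 (Entrez 11475), the alpha-actin of vascular smooth muscle, had log2 values of 9.84, 9.45 and 9.44 in castrated samples, against 9.58, 9.44 and 9.54 in sham samples. Castrated sample 1 stood above the rest, and the other castrated samples lay within or below the sham range. The difference was 0.055 (standard error 0.13, 95% interval −0.23 to 0.34, limma adjusted p = 0.951), and without castrated sample 1 it was −0.076. In whole muscle, fewer cells of a type and less RNA per cell cannot be told apart, and this holds for every value given here.

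Actg2 (Entrez 11468), the gamma-actin of gut smooth muscle, was the dimmest member. Its log2 values were 4.92, 4.91 and 5.12 in castrated samples, against 4.75, 4.23 and 4.87 in sham samples, so the groups did not overlap, by a narrow margin. All lay under the array medians of 5.40 to 5.47, at percentile 35.8 of mean level, and whether the gene was above background was not tested. The difference was 0.37 (standard error 0.16, 95% interval −0.0045 to 0.74, limma adjusted p = 0.707), and without sham sample 2, the lowest, it was 0.18. Actc1 and Actg2 were the 2 members with castrated samples all above sham samples, where 5.73% of all genes had that pattern.

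The cytoplasmic pair did not pass either. Actb (Entrez 11461), beta-actin, had log2 values of 10.06, 9.85 and 9.75 in castrated samples, against 9.86, 9.71 and 9.64 in sham samples. The groups overlapped, and the difference was 0.15 (standard error 0.12, 95% interval −0.11 to 0.41, limma adjusted p = 0.823). It was 0.065 without castrated sample 1, which was its highest sample. Actb is often used to scale other measurements, and the interval allows a fold between 0.92 and 1.33 here.

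Actg1 (Entrez 11465), gamma-actin of the cytoskeleton, had log2 values of 10.60, 10.52 and 10.47 in castrated samples, against 10.87, 10.36 and 10.57 in sham samples. The sham samples spanned 0.50 and enclosed all castrated samples. The difference was −0.072 (standard error 0.13, 95% interval −0.38 to 0.23, limma adjusted p = 0.932), and it was 0.061 without sham sample 1 and −0.19 without sham sample 2.

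**Figure D2:**
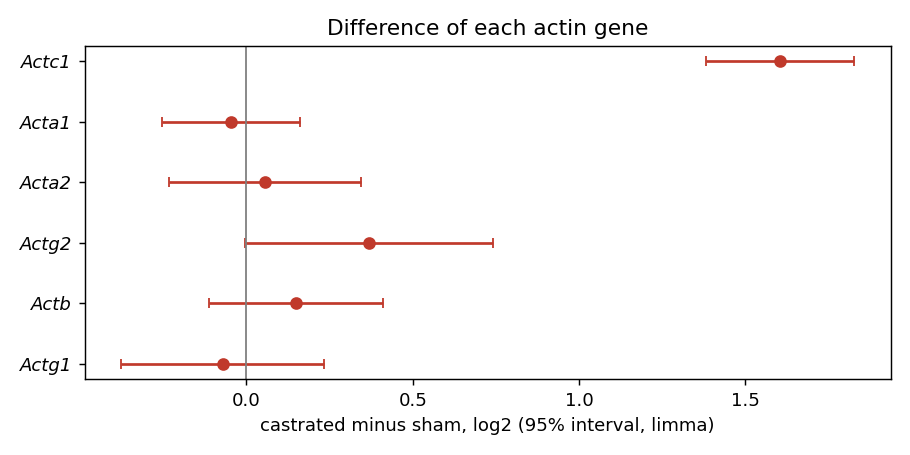
Castrated minus sham difference of each actin gene on the log2 scale, with 95% intervals from limma (n = 3 arrays a group). Actc1 stands at 1.60, and the intervals of the other 5 genes include 0. The Actc1 interval is a description and not a test, since its known difference led to the family.

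Actg1 was the member with more than 1 probe set of its own. It had 6 that name it alone, and a further 1 names Actg1 together with Gm12739, whereas the other 5 genes had 1 each. A pair of the Actg1 probe sets, including the one used, had identical values on all 6 arrays, and they count as 1 measurement. In the table, 1395 of 41345 probe sets had the same 6 values as another. The remaining Actg1 probe sets were dimmer. The brightest of them, with means of 8.69 in castrated and 8.92 in sham samples, differed by −0.23, and those with sham means of 7.16, 6.56 and 6.06 differed by −0.044, −0.082 and 0.037. The probe set shared with Gm12739 differed by 0.032. Actin coding sequences are close to one another and Actb and Actg1 have many processed pseudogenes, so signal of one actin in the probe sets of another was not tested, and probe sequences were not used here.

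Isoform balance was followed as the log2 difference between 2 members within each array, of which only the change between groups can be read, because probe sets differ in brightness for the same amount of RNA. Actc1 minus Acta1 was −2.84, −2.80 and −2.66 in castrated samples, against −4.54, −4.38 and −4.33 in sham samples. All castrated values lay above all sham values, and the change was 1.65 on the log2 scale or 3.14-fold. Every ratio over Acta1 shares the limit given above, that a proportional response of so bright a probe set was not tested. Against the other members, the same measure for Actc1 moved by 1.55 (Acta2), 1.23 (Actg2), 1.45 (Actb) and 1.68 (Actg1), with no overlap of the groups in any of these 5 pairs. All of these rest on the difference of Actc1 that brought the family up.

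Among the 10 pairs that leave out Actc1, changes were between −0.41 and 0.44. Acta1 minus Actb was 3.46, 3.70 and 3.76 in castrated samples, against 3.77, 3.84 and 3.90 in sham samples. The groups of that pair did not overlap, by a narrow margin, with a change of −0.20. Acta1 minus Actg2 was 8.60, 8.64 and 8.40 in castrated samples, against 8.89, 9.33 and 8.67 in sham samples, a change of −0.41 that was −0.23 without sham sample 2. Actg2 minus Actg1 changed by 0.44 and its groups did not overlap either, while the groups of the other 7 pairs overlapped. Pairs with Actg2 rest on a dim gene for which a signal above background was not tested. The pairs share members and are not independent of each other.

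**Figure D3:**
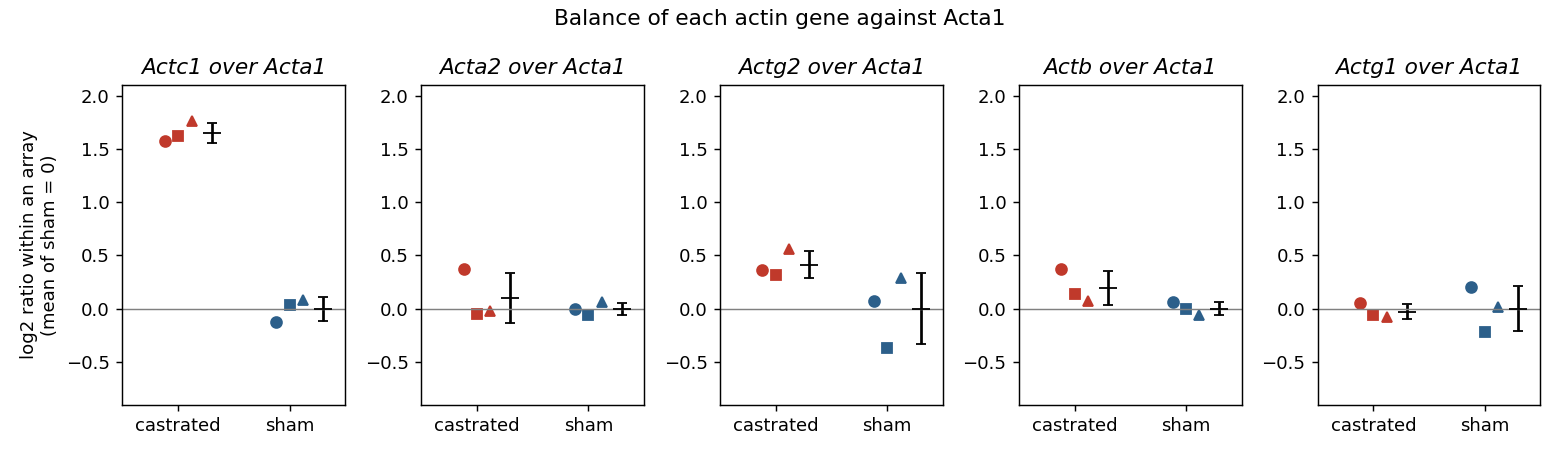
Log2 ratio of each other actin gene over Acta1 within an array, with the mean of the 3 sham arrays set at 0, for castrated arrays (red, left) and sham arrays (blue, right) and the mean ± SD in black. The Actc1 panel moves by 1.65, and the other panels move by at most 0.41, where a proportional response of the bright Acta1 probe set and an Actg2 signal above background were not tested.

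Within the groups the members varied in different ways. With each value centred on its group mean over the 6 arrays, Acta2 and Actb went together (Pearson r = 0.81), as did Acta1 and Actg1 (r = 0.73) and Actb and Actg1 (r = 0.63). Actc1 went against Actb (r = −0.975) and Acta2 (r = −0.77). These are descriptions over 6 arrays that share the array's own scaling, and the Actc1 deviations behind them were at most 0.095 in size.

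The genes whose values followed Actc1 most closely over the 6 arrays were searched among 381 genes that span at least 1 on the log2 scale. They were the complement protease gene C1s2 (r = 0.97), the stress-inducible Gadd45g (r = 0.95), the glutathione transferase Gstm2 (r = 0.95), the sodium pump subunit Atp1b2 (r = 0.94) and the arrestin-domain gene Arrdc2 (r = 0.90). Arrdc2 had log2 values of 9.52, 9.03 and 9.16 in castrated samples, against 8.48, 8.43 and 8.63 in sham samples. It differed by 0.72 (standard error 0.14, limma adjusted p = 0.391). In all 5 genes castrated samples lay above sham samples, which the search itself favours, and their differences were between 0.72 and 1.10 with limma adjusted p between 0.128 and 0.391. C1s2 was dim, at percentile 4.5 of mean level.

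For the other members the search used values centred on the group means, over genes whose centred values span at least 0.6, 1643 genes for each member but Actg2 and 1642 for Actg2. The closest to Acta1 were Igtp and Ifit3, both inducible by interferon, and the ribosomal protein gene Rps28, with r between 0.983 and 0.994. The closest to Actb were the mast cell tryptase Tpsb2, Bex3 and the adaptor gene Grap2 (r between 0.974 and 0.987). The closest to Actg1 were Zfp985, the cytochrome oxidase subunit gene Cox7b and the kinesin gene Kif1a (r between 0.976 and 0.982), and to Actg2 they were Zfp954, Zfp935 and Trim30d (r between 0.983 and 0.996). So high an r is easily met among many genes over so few arrays.

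The closest to Acta2 were Tnnc1, Atp2a2 and Zfp936. Slow troponin C, Tnnc1 (r = 0.996), had log2 values of 8.11, 6.42 and 6.49 in castrated samples, against 6.68, 6.10 and 6.65 in sham samples. The calcium pump of slow fibres, Atp2a2 (r = 0.989), had a log2 value of 9.09 in castrated sample 1 and of 7.90 to 8.13 on the other arrays. Zfp936 (r = 0.977) stood at 5.54 in castrated sample 1 and at 4.85 to 5.29 on the other arrays. All 8 of the slow-fibre genes measured were highest in castrated sample 1. The mean log2 value of these genes was 7.58 in that sample and 6.48 and 6.47 in the other castrated samples, against 6.32 to 6.63 in sham samples. Their median difference was 0.37, and without castrated sample 1 it was −0.047. Their part in the Acta2 value was not tested. Actc1 did not follow this order, since castrated sample 1 had its lowest castrated value.

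**Figure D4:**
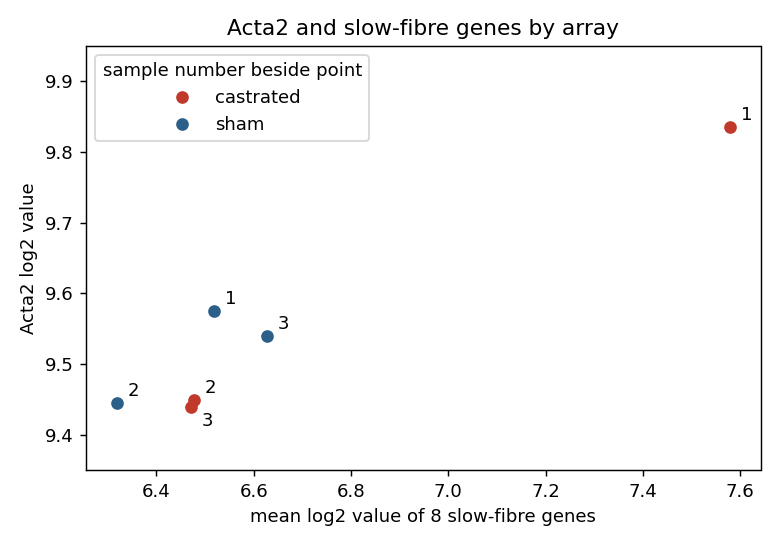
Acta2 log2 value against the mean log2 value of 8 slow-fibre genes on each array, castrated in red and sham in blue, with the sample number beside each point. Castrated sample 1 stands apart, at 7.58 for the slow-fibre genes and 9.84 for Acta2, and the other 5 arrays lie together.

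Markers of cells that could carry these actins were set beside them. Genes of fast fibres, the bulk of this muscle, had mean log2 values of 12.92 to 13.00 in castrated samples, against 12.87 to 13.06 in sham samples, with 4 of 9 genes higher and a median difference of −0.014. Cardiac markers had mean log2 values of 5.16 to 5.39 in castrated samples, against 5.25 to 5.30 in sham samples, with 4 of 9 higher. Myh6, the cardiac myosin, differed by 0.012, Tnni3, cardiac troponin I, by 0.13, the natriuretic peptide gene Nppa by −0.12 and the atrial light chain gene Myl7 by −0.15. The 9 cardiac genes differed by between −0.18 and 0.13, beside 1.60 for Actc1. They were dim, at a median percentile of 42.8 of mean level, and whether they were above background was not tested. Satellite cell markers had mean log2 values of 5.48 to 5.75 in castrated samples, against 5.46 to 5.54 in sham samples. Of 5 genes 4 were higher, with a median difference of 0.13. Pax7 differed by 0.026, Myf5 by 0.16, Calcr by 0.29 and Cdh15 by −0.067.

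Smooth muscle markers had mean log2 values of 7.02 to 7.23 in castrated samples, against 7.03 to 7.14 in sham samples. Of 8 genes 4 were higher and 4 lower, and the smooth muscle myosin Myh11 differed by −0.072, calponin Cnn1 by −0.20, smoothelin Smtn by 0.17 and transgelin Tagln by −0.030. Castrated sample 1, the highest for Acta2, was also the highest of the 6 for this list. That sample was the highest for the slow-fibre, cardiac, fibroblast and tendon lists too, and not for the remaining marker lists. Pericyte markers, the list nearest to small vessels, had mean log2 values of 8.88 to 8.91 in castrated samples, against 8.83 to 8.86 in sham samples, with 4 of 6 genes higher and a median difference of 0.073. Rgs5 differed by 0.15 (0.027 without sham sample 1), Pdgfrb by 0.11, Kcnj8 by −0.063 and Cspg4 by −0.012. Endothelial markers had 3 of 4 genes higher with a median of 0.025, macrophage markers 1 of 4 with −0.081 and adipocyte markers 2 of 3 with 0.18. Fibroblast markers had 2 of 4 higher with a median of 0.050, and they spread widely. The collagen gene Col1a1 had log2 values of 10.12, 9.75 and 8.94 in castrated samples, against 9.23, 8.71 and 8.25 in sham samples, with overlapping groups and a difference of 0.87 (standard error 0.31, limma adjusted p = 0.668), whereas the receptor gene Pdgfra differed by −0.22. Tendon markers were higher for 5 of 6 genes, with a median of 0.50 and mean log2 values of 6.67 to 7.09 in castrated samples, against 6.17 to 6.72 in sham samples. None of these markers passed over all genes, and their part in the actin values was not tested.

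The other genes of actin biology were taken as 7 lists that hold 140 genes, of which 127 were measured. None passed over all genes, against the 0.0135% of all genes called. Of the 127, 58 were higher and 69 lower, with a median of −0.013, where over all genes 48.5% were higher and the median was −0.0056. At an unadjusted p under 0.05 there were 11 of the 127, and 7.13% of all genes.

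The transcription factors and cofactors that act on actin promoters had 8 of 16 measured members higher and 8 lower, with a median of 0.020. Abra, also called STARS, an actin-binding protein that activates SRF through its cofactors, had log2 values of 12.14, 12.18 and 12.17 in castrated samples, against 11.76, 11.95 and 11.93 in sham samples. The groups did not overlap, and it differed by 0.28 (standard error 0.098, limma adjusted p = 0.668). Srf, the gene of SRF itself, went the other way. It had 8.03, 8.04 and 8.09 in castrated samples, against 8.33, 8.42 and 8.14 in sham samples, and differed by −0.24 with no overlap (standard error 0.11, limma adjusted p = 0.697). It falls outside the rule for named genes and was chosen after its values were seen. Tead4, a factor for muscle gene promoters, differed by −0.27 and the myogenic factor Myod1 by −0.29, with limma adjusted p of 0.687 and 0.691. Other known SRF targets had 8 of 20 higher and a median of −0.038, which was 0.054 without sham sample 1 and −0.089 without castrated sample 1. Among them Fos, the immediate early gene, had 5.72, 5.28 and 5.06 in castrated samples, against 7.24, 6.35 and 6.00 in sham samples, and differed by −1.18 (limma adjusted p = 0.486). Filip1l differed by 0.43 and Junb, another immediate early gene, by −0.31 (−0.15 without sham sample 1), so the targets named here differed in both directions.

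Partners of actin in the thin filament and Z-disc had 11 of 25 higher and a median of −0.013. The smallest p were those of Kbtbd13 (−0.27), a nemaline myopathy gene in humans, the slow troponin T gene Tnnt1 (0.43) and the tropomyosin gene Tpm3 (−0.15). Leaving out castrated sample 3 moved Kbtbd13 to −0.11, and leaving out castrated sample 2 moved it to −0.41. Tnnt1 was 0.10 without castrated sample 1, its highest, and 0.65 without castrated sample 2. Assembly and turnover genes had 12 of 28 higher and a median of −0.027. Gelsolin, Gsn, which severs filaments, had log2 values of 10.33, 10.20 and 10.26 in castrated samples, against 10.71, 10.46 and 10.46 in sham samples, a difference of −0.28 with no overlap (limma adjusted p = 0.678). The formin Diaph1 differed by −0.30 (−0.18 without sham sample 3) and Actr3, a core subunit of the Arp2/3 complex that branches filaments, by −0.24.

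Genes that fold or modify actin, led by the CCT chaperonin and prefoldin, had 6 of 15 higher and a median of −0.0068. The widest differences were −0.20 for the prefoldin subunit Pfdn2 (−0.12 without castrated sample 1, −0.30 without castrated sample 3) and 0.13 for the chaperonin subunit Cct6a, and Pdcl3, a chaperonin cofactor, differed by −0.16. Actin-related proteins had 7 of 12 higher and a median of 0.054. Actrt3 differed by 0.40 and Actl6b, a neuronal chromatin remodelling subunit, by 0.24. Actl6b was 0.096 without castrated sample 1, and Actrt3 was 0.61 without castrated sample 3. Both were dim, Actrt3 at percentile 37.1 of mean level and Actl6b at percentile 25.8.

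Genes of embryonic and regenerating muscle, the setting in which skeletal muscle is known to use Actc1, had 8 of 16 higher, 8 lower and a median of 0.0051. Ncam1, an adhesion molecule of immature and denervated fibres, differed by 0.43 (standard error 0.16, limma adjusted p = 0.668) and the acetylcholine receptor subunit Chrna1 by 0.25 (standard error 0.10, limma adjusted p = 0.685). The perinatal myosin Myh8 had log2 values of 6.28, 6.33 and 6.22 in castrated samples, against 6.50, 6.48 and 6.57 in sham samples, a difference of −0.24 with no overlap (limma adjusted p = 0.685).

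**Figure D5:**
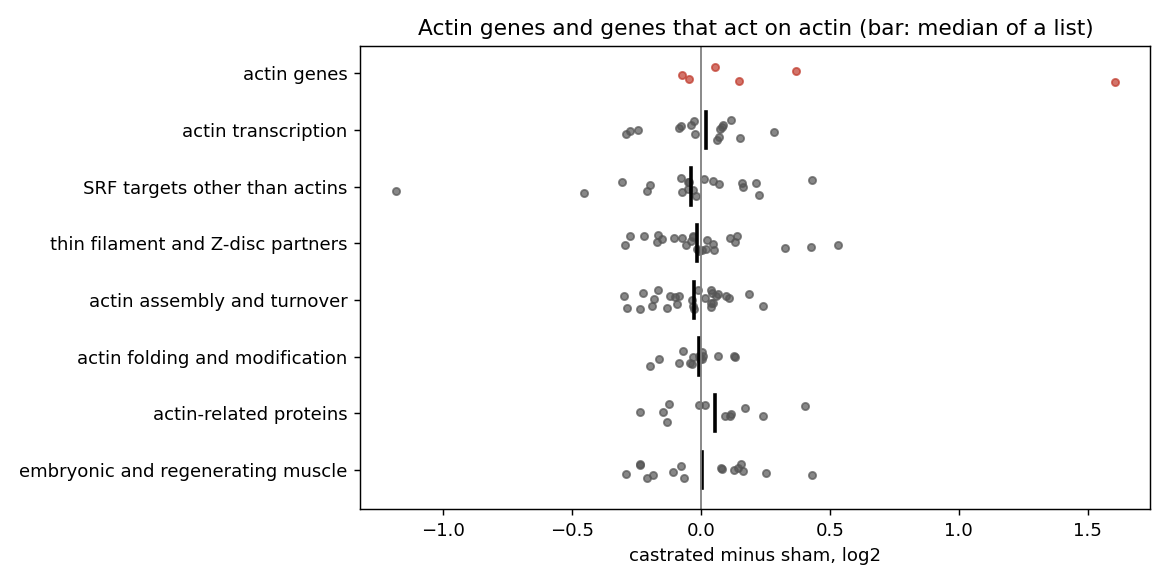
Castrated minus sham difference on the log2 scale for the 6 actin genes (red) and the measured genes of 7 lists of actin biology (grey), 1 point a gene, with a black bar at the median of each of the 7 lists. Actc1 is the point at 1.60, Fos the one at −1.18, and list medians lie between −0.038 and 0.054.

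The genes that lie next to the members on their chromosomes were looked at by position, outside the rule for named genes. Next to Actc1 on chromosome 2, the gap junction gene Gjd2 had log2 values of 4.93, 5.03 and 4.68 in castrated samples, against 4.60, 4.58 and 4.54 in sham samples, and differed by 0.31 (standard error 0.11, limma adjusted p = 0.669). It was dim too, at percentile 34.3 of mean level. On the other side, the splicing factor gene Aqr differed by −0.081 with overlapping groups. The neighbours of the other 5 members differed by between −0.14 and 0.15, with overlapping groups in each.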

How the data were processed

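Labelled RNA (300 ng per sample) from 3 castrated and 3 sham tibialis anterior samples was hybridised to Affymetrix whole-transcript arrays, per the labels' protocols. Per probe set, the authors deposited normalized log2 values. The submitters' processing notes name Partek, and how the values were normalized is not given in the sources used here. Precision is limited by the number of arrays.

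Of 41345 probe sets 23521 name 1 gene, of which 23328 matched a RefSeq table (GRCm38.p6) through Entrez identifiers, giving 22180 genes, each read from its brightest probe set on average. No filter on dim genes was used. Differences, castrated minus sham, were fitted with limma 3.58.1 under R 4.3.3 (lmFit and eBayes, groups only), and p was adjusted by Benjamini-Hochberg across the 22180 genes, with 0.05 as the threshold. Batches are not given in the labels. On simulated data for castrated against sham (22180 genes, 200 changed), 38% of genes changed by 0.5 and 100% of those changed by 1 were recovered, with 9 false calls. The simulated noise was independent and normal with the limma-moderated spread, and far more genes were changed than were called here. These shares therefore do not carry over to the real data, where Fos, at −1.18, and Gstm2, at 1.10, were not called.

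The members and lists were chosen with earlier results of these data known. Named were all members, the 3 genes of each pathway list with the smallest p, up to 4 markers a list, and the genes closest in pattern (5 for Actc1, 3 for each other member), without unnamed gene models, receptors and small RNAs. Same-numbered samples correlated in their deviations from group means at 0.076, 0.032 and 0.047. Differently numbered samples were lower, at −0.045 to 0.0018. All these values are weak and the labels give no pairs, so the numbers were not taken as pairs. Alternatives were other normalizations, filters, probe set rules, variance priors, array weights, a replicate block, a threshold of 0.1 and leaving out each sample. Figures were drawn with matplotlib 3.10.9.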

Additional observations from a re-analysis of the deposited data

How the results depend on the processing

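The Actc1 difference was between 1.56 and 1.65 with a sample left out and between 1.59 and 1.64 under the other alternatives. These are sizes and not a test, since the known difference of Actc1 led to the family. Variance moderation, its prior, a filter on other genes and the threshold cannot alter the size of any member. Actc1 has 1 probe set, so the probe set rules cannot alter its size either, and it was 1.60 in all these settings by construction. Without variance moderation no gene is called. The replicate number as a block is balanced over the groups and also cannot move a size. With it none of the other 5 members passed, and 2 genes passed in all. The replicate numbers stand in the titles alone, so this block carries no known pairing. The count of genes past the threshold, 3, was 9 with genes under the 25th percentile left out, 16 at the 50th, 10 with a trended robust prior, 1 with each probe set tested singly and 0 without variance moderation. Before adjustment, 1581 genes had a p under 0.05 with all samples. With a sample left out Acta2 ran from −0.076 (without castrated sample 1) to 0.12 and Actg1 from −0.19 to 0.061 (without sham sample 1), while Acta1, Actg2 and Actb kept their direction under every alternative run, and none of the 5 members other than Actc1 passed in any. The median of the SRF targets, −0.038, ran from −0.089 (without castrated sample 1) to 0.054 (without sham sample 1), was 0.011 and 0.012 without castrated samples 2 and 3, and was 0.0054 after quantile and 0.0005 after cyclic loess normalization, so its direction is undetermined. The median of the assembly list was 0.019 after quantile normalization, that of the actin-related list −0.054 and −0.14 with genes under the 25th and 50th percentile left out, and that of the embryonic list −0.067 at the 50th. With a sample left out, the thin filament median ran from −0.038 (without castrated sample 1) to 0.010, the actin-related median from −0.0002 (without sham sample 1) to 0.069 and the embryonic median from −0.0016 to 0.10 (without castrated sample 2). The cause of these shifts was not tested. Actg2, under the 50th percentile of mean level, has no value there.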
